A study of Mus musculus with 24 samples.

Results

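The 9 genes described here, Slit1, Gse1, Itga9, Mtss1, Trio, Med13l, Stx8, Epb41l4b and Pde2a, were taken from 21631 mouse protein-coding genes because their loci held many more ATAC-seq peaks in pro-B than in pre-pro-B cells. ATAC-seq marks DNA that a transposase can reach, and a peak is a stretch where its cuts pile up over the local background. The measure behind the choice was the number of peaks in the gene and 10 kb on both sides, counting for each library only its 40000 peaks of highest -log10 q (the strongest peaks, in what follows). The 9 genes are 9 of the 10 with the largest difference in that number. The gene left out, Ebf1, which encodes a transcription factor that sets up the B-cell programme, ranked 3 with a difference of 12.5 peaks. The difference was 10.2 peaks for Pde2a, the last gene inside, and 10.1 peaks for Msi2, the first gene outside after Ebf1, so the limit of the list falls between nearly equal values.

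The libraries came from B-cell progenitors sorted from mouse bone marrow. They form 6 groups of 4 libraries: Mki67-/- and WT pre-pro-B, Mki67-/- and WT pro-B, and Mki67-/- and WT small pre-B cells. Mki67-/- mice lack a functional gene for Ki-67, a protein found in the nucleus of cycling cells, and WT mice carry it. Strain, age and the surface markers of the sort are not given in the sources used here. Nothing in the labels ties a library to a mouse: the spread behind each p-value is that among libraries, which may be technical, and different stages may share mice.

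Pre-pro-B cells are the earliest B-lineage progenitors of the marrow, pro-B cells are committed to the lineage and rearrange the immunoglobulin heavy chain, and small pre-B cells are resting cells that rearrange the light chain. At commitment, lineage factors bind and open many sites far from promoters, often inside introns of long genes. Such a site need not act on the gene that holds it, and a peak count says nothing of how much a gene is transcribed.

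Each library had 1 deposited peak list on mm10, with 54387 to 88946 peaks after overlapping entries were merged. Read totals were not used here, so the depth is unknown and no counting interval is given. The -log10 q of the peak at rank 40000, which depends on depth and on background, ran from 11.2 to 43.8. It averaged 20.4 ± 7.39 in Mki67-/- and 26.6 ± 7.03 in WT small pre-B libraries (SD, n = 4 each). Mki67 itself held 1 to 7 deposited peaks per library, and its group means differed between genotypes by less than their SD at each stage, but the labels do not say which part of the gene was deleted, so this checks nothing. The labels name the cells only as lymphoid progenitors of a stage, and marker genes were used to check them. Over 10 B-lineage genes, the 8 pre-pro-B libraries summed to 26 to 33 peaks, the pro-B libraries to 65 to 70 and the small pre-B libraries to 55 to 64. These genes include Ebf1, so part of the rise from pre-pro-B to pro-B libraries is its difference of 12.5 peaks, given above. Over 10 T and NK markers the sums were 21 to 28, 12 to 16 and 8 to 12 at the same stages, with Cd3e, Cd8a and Ncr1 at 0 in both pro-B and both small pre-B groups. Over 10 stem and progenitor markers they were 32 to 39, 24 to 31 and 18 to 23, and over 10 myeloid markers 19 to 25, 13 to 18 and 16 to 21, with Ly6g at 0 in all 6 groups. Over 8 plasmacytoid dendritic markers they were 30 to 39, 37 to 40 and 37 to 45, and over 10 erythroid and megakaryocyte markers 14 to 16, 12 to 17 and 13 to 15, with Gata1 at 0 in all 6 groups. In sorted bulk cells, a smaller share of cells with an open site and less opening per cell cannot be told apart, and the part of other cell types in the gains was not tested.

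Where the annotated transcription starts lie matters for where the gains lie, so the starts are shown first. RefSeq promoters (build GRCm38.p6, the assembly that mm10 names) were at hand for 13 starts of 7 of the genes, each 250 bases before to 50 after the start. Trio, Stx8 and start 3 of Gse1 had a peak among the 40000 strongest in 24 of 24 libraries. So did starts 2, 3 and 4 of the 5 starts of Pde2a, where the windows of starts 3 and 4 overlap. Epb41l4b is shown with the first 3 because its promoter has 3 matches to the core letters bound by Ebf1 and yet had such a peak in 1 of 24 libraries, a WT small pre-B library. Sequences run 5′ to 3′ on the strand of the gene, and capitals mark matches on either strand to CCCNNGGG (Ebf1 core), CAGNTG (E-box), CCGGAA (Ets), TGTGGT (Runx) or GGGCGG (GC box), which can overlap each other.
Trio promoter, chr15:28025799-28026098, minus strand: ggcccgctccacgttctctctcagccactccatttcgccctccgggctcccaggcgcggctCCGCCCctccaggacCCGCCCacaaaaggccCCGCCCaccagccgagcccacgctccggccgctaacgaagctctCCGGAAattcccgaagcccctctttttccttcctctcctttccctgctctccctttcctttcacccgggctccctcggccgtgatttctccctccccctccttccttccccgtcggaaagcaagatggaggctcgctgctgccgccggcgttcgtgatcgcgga
Stx8 promoter, chr11:67966208-67966507, plus strand: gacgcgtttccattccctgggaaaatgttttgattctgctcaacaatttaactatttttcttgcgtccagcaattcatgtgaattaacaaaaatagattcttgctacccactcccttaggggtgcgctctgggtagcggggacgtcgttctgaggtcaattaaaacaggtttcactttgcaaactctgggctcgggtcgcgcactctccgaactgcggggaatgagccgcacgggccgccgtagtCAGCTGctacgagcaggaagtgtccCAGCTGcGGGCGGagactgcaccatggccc
Gse1 promoter at start 3, chr8:120537159-120537458, plus strand: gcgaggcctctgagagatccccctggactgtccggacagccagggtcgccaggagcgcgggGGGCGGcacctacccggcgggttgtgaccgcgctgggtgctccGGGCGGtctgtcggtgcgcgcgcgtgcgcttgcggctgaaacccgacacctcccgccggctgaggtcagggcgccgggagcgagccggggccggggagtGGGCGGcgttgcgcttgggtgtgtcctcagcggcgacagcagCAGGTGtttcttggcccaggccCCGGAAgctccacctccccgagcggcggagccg
Epb41l4b promoter, chr4:57143107-57143406, minus strand: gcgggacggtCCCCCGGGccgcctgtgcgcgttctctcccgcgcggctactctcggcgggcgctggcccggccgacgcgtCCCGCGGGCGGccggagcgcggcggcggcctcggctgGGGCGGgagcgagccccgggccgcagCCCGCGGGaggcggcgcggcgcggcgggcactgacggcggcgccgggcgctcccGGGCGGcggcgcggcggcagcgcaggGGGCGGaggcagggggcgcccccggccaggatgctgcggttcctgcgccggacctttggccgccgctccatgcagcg

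None of these 4 promoters lay in a region gained at the pro-B stage, and no gained region overlapped any of the 13. The Ebf1 core was found in 2 of the 13 promoters, against 13.7% of 32851 mouse promoters of the same length. An E-box was found in 7 of 13, against 51.4%, an Ets match in 2, against 14.9%, a Runx match in 2, against 16.8%, and a GC box in 8, against 35.7%. The 2 promoters with a Runx match are the overlapping windows of Pde2a, which share a match. A match describes letters in a window and is not a binding site.

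To follow the loci peak by peak, overlapping peaks of the 24 libraries, taken from the 40000 strongest of each, were joined to 77054 regions. Regions were called gained where at least 7 of 8 pro-B and at most 1 of 8 pre-pro-B libraries had a peak in it. The windows of the 9 genes held 317 regions, and 105 of them were gained, where 12.6% of all regions were. Since the genes were chosen on this contrast, the counts are a description with no test. Slit1 and Trio held 15 gained regions each, Gse1 13, Itga9 and Mtss1 12 each, Med13l 11, and Stx8, Epb41l4b and Pde2a 9 each. Another 43 regions were constant, with a peak in at least 7 of 8 libraries at each stage, and 26 were called closed at the pro-B stage, the reverse of gained. Closed, kept, lost and returned refer in what follows to peaks among the 40000 strongest: of the 26 closed regions, 13 had no deposited peak in any pro-B library and 5 still had one in at least 7 of 8. Openings therefore outnumbered closings in every one of the 9 genes, which follows from how the genes were chosen.

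**Figure D1:**
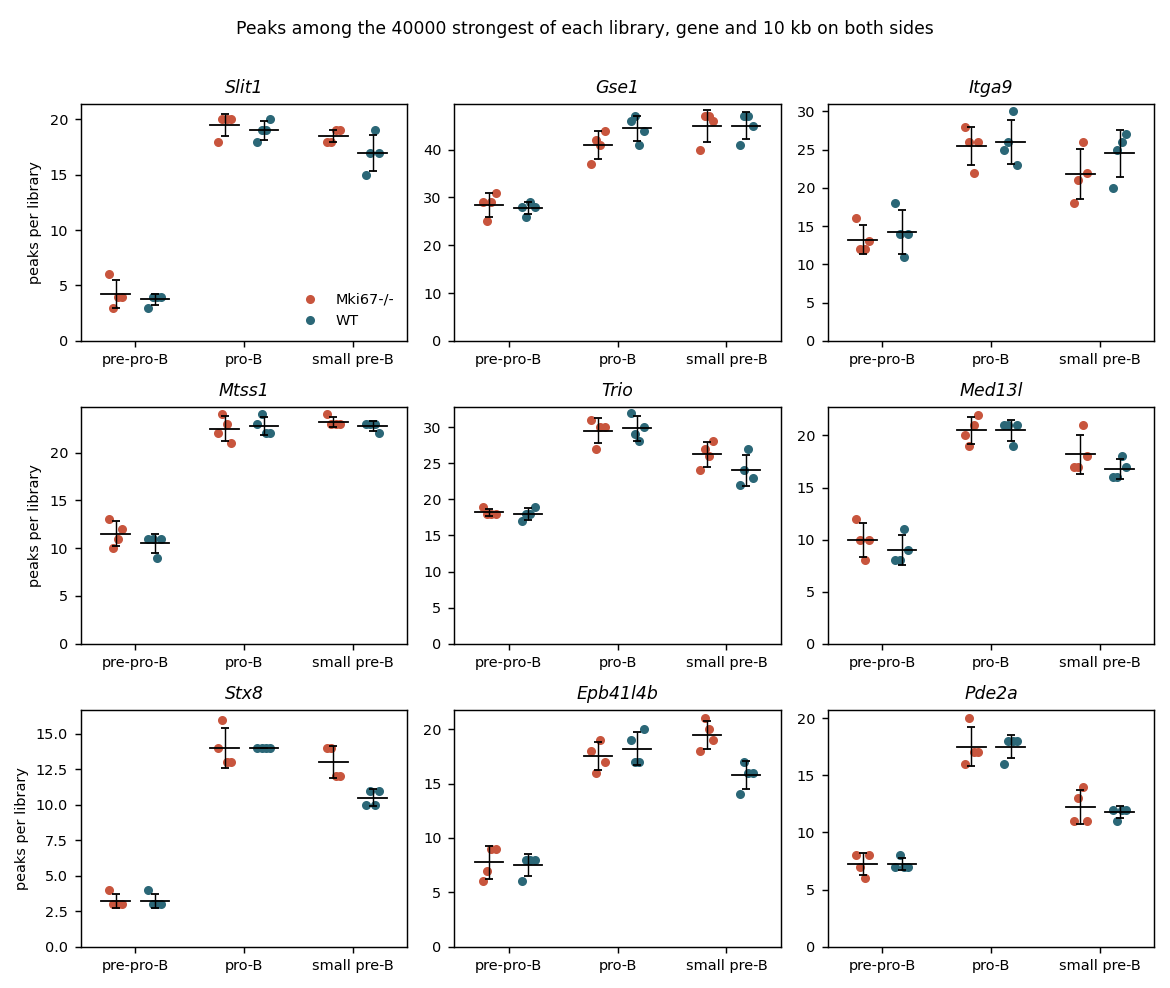
Number of peaks among the 40000 strongest of each library, in each gene and 10 kb on both sides, by stage (x axis) and genotype. Points are libraries (4 per group), lines are means and bars SDs. All 9 genes stand higher in pro-B than in pre-pro-B libraries, and Pde2a comes down to 12 peaks in small pre-B against 17.5 in pro-B libraries.

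Among genes of the cell surface, Slit1, which encodes a secreted guidance ligand of Robo receptors, showed the largest difference. It held 6, 3, 4 and 4 peaks in Mki67-/- and 3, 4, 4 and 4 in WT pre-pro-B libraries. It held 18, 20, 20 and 20 in Mki67-/- and 18, 19, 19 and 20 in WT pro-B libraries. In small pre-B libraries it held 18, 18, 19 and 19 in Mki67-/- and 15, 17, 19 and 17 in WT cells. The pro-B and pre-pro-B libraries therefore did not overlap, with means of 19.2 ± 0.886 and 4.00 ± 0.926 (SD, n = 8 each), a log2 ratio of 2.27. That all 9 genes had such non-overlapping stages follows from their choice; of all 16218 genes tested, 24.8% passed the genome-wide exact permutation test as higher in pro-B cells.

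The 14 gained regions inside Slit1 (chromosome 19, 41597824 to 41747275 on mm10) were spread from 2.9 to 145.6 kb above its lower boundary. The last of the 15 lay above the higher boundary (41751182 to 41752201), and had a peak in 8 of 8 small pre-B and 8 of 8 pro-B libraries. The neighbouring gene Lcor enters the window at its other end, below Slit1. A run of 5 gained regions covered 22.1 kb (41627740 to 41649793). The strongest of them (41633748 to 41634762) stood on average at the top 5.09% of the pro-B lists, and a deposited peak at that site was already present in 8 of 8 pre-pro-B libraries, at the top 61.8%. The region of second rank (41672759 to 41673144, top 5.65% in pro-B) had no deposited peak in any pre-pro-B library. Of the 15 gained regions of Slit1, 11 were kept in small pre-B cells.

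Itga9 encodes the integrin alpha 9 subunit, an adhesion receptor for the extracellular matrix. It held 16, 12, 12 and 13 peaks in Mki67-/- and 18, 14, 11 and 14 in WT pre-pro-B libraries. It held 28, 26, 22 and 26 in Mki67-/- and 25, 26, 30 and 23 in WT pro-B libraries, and 18, 21, 26 and 22 in Mki67-/- and 20, 25, 26 and 27 in WT small pre-B libraries. This was the widest spread between libraries relative to the gain, and 1 small pre-B library had no more peaks than the highest pre-pro-B library, at 18. Its 12 gained regions stood beside 5 that closed at the pro-B stage, of which 1 (118688616 to 118689320) had a peak in 8 of 8 pre-pro-B and in 0 of 8 pro-B and small pre-B libraries. In a run of 16.8 kb (chromosome 9, 118661895 to 118678698) the 4 gained regions enclose a closed one (118677084 to 118677894), which kept a deposited peak in 8 of 8 pro-B libraries at the top 81.3% and so changed in rank only. The single RefSeq start in the table, at 118711692, had no deposited peak in any library. It lies inside the gene, which runs on the plus strand from 118606709 to 118901003. A start at the lower boundary was not in the table, so a promoter there was not examined.

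Of the 3 genes of the cell cortex, Mtss1 encodes a membrane-bending protein that binds actin, Trio an exchange factor that acts on the actin cytoskeleton, and Epb41l4b a band 4.1 protein that ties membrane proteins to the cytoskeleton. Mtss1 held 13, 10, 11 and 12 peaks in Mki67-/- and 11, 11, 9 and 11 in WT pre-pro-B libraries. It held 22, 24, 23 and 21 in Mki67-/- and 23, 24, 22 and 22 in WT pro-B libraries, and 24, 23, 23 and 23 in Mki67-/- and 23, 23, 23 and 22 in WT small pre-B libraries. The pro-B mean of 22.6 ± 1.06 and the pre-pro-B mean of 11 ± 1.20 (SD, n = 8 each) gave a log2 ratio of 1.04, and small pre-B cells kept the pro-B level. In a run of 5 gained regions over 35.6 kb (chromosome 15, 59029961 to 59065578), 4 were kept in small pre-B cells. The strongest of them (59058882 to 59059956) stood at the top 2.48% in small pre-B and the top 7.18% in pro-B lists. The 2 regions of Mtss1 that closed at the pro-B stage (59037471 to 59038185 and 59061792 to 59062848) lay in the same run and had a peak again in 8 of 8 small pre-B libraries.

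Trio held 19, 18, 18 and 18 peaks in Mki67-/- and 17, 18, 18 and 19 in WT pre-pro-B libraries. It held 31, 27, 30 and 30 in Mki67-/- and 32, 29, 28 and 30 in WT pro-B libraries, and 24, 27, 26 and 28 in Mki67-/- and 22, 24, 27 and 23 in WT small pre-B libraries. Small pre-B cells thus lay between the other stages. Its longest run had 6 gained regions in 31.3 kb (chromosome 15, 27754398 to 27785699), the largest number in a run of any of the 9 genes. The first of the 6 (27754398 to 27755281) was kept in small pre-B cells, at the top 10.1% of the lists, while 3 were lost and 2 were mixed. Inside the same run a region with no deposited peak in any pre-pro-B or pro-B library (27772151 to 27772650) had a peak in 8 of 8 small pre-B libraries. Trio also had the most regions that closed at the pro-B stage, 7, and 4 of these lay within one stretch (27860307 to 27874417), each with no deposited peak in any pro-B or small pre-B library. A weaker region between the first 2 of them (27861000 to 27861359) had a deposited peak in 4 of 8 small pre-B libraries. Another 2 (27960097 to 27960974 and 27974321 to 27975184) had a deposited peak in 8 of 8 libraries of every stage and were below the 40000 strongest in pro-B cells only, at the top 70.1% and the top 72.6%, so they changed in rank, not in presence. The promoter printed above lies in a constant region (28025134 to 28026503), at the top 5.67% of pre-pro-B lists, the top 4.87% of pro-B lists and the top 26.9% of small pre-B lists.

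Epb41l4b held 6, 7, 9 and 9 peaks in Mki67-/- and 6, 8, 8 and 8 in WT pre-pro-B libraries. It held 18, 16, 19 and 17 in Mki67-/- and 19, 17, 17 and 20 in WT pro-B libraries. In small pre-B libraries it held 18, 21, 20 and 19 in Mki67-/- and 14, 17, 16 and 16 in WT cells, where the genotypes did not overlap. Its 9 gained regions all lay inside the gene, between 31.7 and 121.5 kb above the lower boundary (chromosome 4, 56991972 to 57143168), and 4 of them formed a run of 17.6 kb. The strongest (57091160 to 57091862) stood at the top 8.41% in small pre-B and the top 9.86% in pro-B lists. The promoter printed above is preceded, on the strand of the gene, by a constant region (57143380 to 57144023). That region overlaps only the upstream end of the promoter and had a peak in at least 7 of 8 libraries at each stage. The number of libraries given above for the promoter holds for its window alone.

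Stx8 and Pde2a act inside the cell, Stx8 as a SNARE in the fusion of endosomes and Pde2a as a phosphodiesterase that cyclic GMP stimulates and that degrades cyclic AMP and cyclic GMP. Stx8 held 4, 3, 3 and 3 peaks in both Mki67-/- and WT pre-pro-B libraries. It held 14, 16, 13 and 13 in Mki67-/- and 14 in each WT pro-B library, and 14, 14, 12 and 12 in Mki67-/- and 10, 11, 10 and 11 in WT small pre-B libraries. Its log2 ratio of pro-B to pre-pro-B cells, 2.11, came next after that of Slit1, with means of 14 ± 0.926 and 3.25 ± 0.463 (SD, n = 8 each). Of its 9 gained regions, 8 had no deposited peak in any pre-pro-B library. The strongest (chromosome 11, 68030584 to 68031279) stood at the top 32.1% in small pre-B and the top 2.52% in pro-B lists. The promoter printed above lies in a constant region (67965979 to 67966908), while the first gained region starts 51.4 kb above the lower boundary. The 2 regions above the higher boundary are in the part of the window shared with Ntn1, itself 13 in the ranking by gain with a difference of 9.88 peaks. A pair of neighbouring regions (67995060 to 67995553 and 67996021 to 67996535) had a peak among the 40000 strongest in 8 of 8 small pre-B and in 0 of 8 pro-B and pre-pro-B libraries.

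Pde2a held 8, 7, 6 and 8 peaks in Mki67-/- and 7, 8, 7 and 7 in WT pre-pro-B libraries. It held 16, 20, 17 and 17 in Mki67-/- and 16, 18, 18 and 18 in WT pro-B libraries, and 11, 13, 14 and 11 in Mki67-/- and 12, 11, 12 and 12 in WT small pre-B libraries. No small pre-B library reached the lowest pro-B library. Pde2a is the shortest of the 9 genes (chromosome 7, 101421691 to 101512829, 91139 bp) and gained the most peaks per length, 9.22 per 100 kb. The strongest 2 (101456610 to 101457461 and 101471083 to 101471990) stood at the top 2.86% and the top 3.49% in pro-B lists, had no deposited peak in any pre-pro-B library and were kept in small pre-B cells. Of the 3 gained regions in its longest run, spanning 4.07 kb (101456610 to 101460678), the first was kept and the other 2 were lost. A nearby closed region (101462194 to 101462910) returned in 8 of 8 small pre-B libraries, at the top 13.7% of the lists.

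Gse1 and Med13l belong to the machinery of transcription. Gse1 is a partner of the CoREST and histone demethylase corepressor complex, and Med13l is a subunit of the kinase module of Mediator. Gse1 held 29, 25, 29 and 31 peaks in Mki67-/- and 28, 26, 29 and 28 in WT pre-pro-B libraries. It held 37, 42, 41 and 44 in Mki67-/- and 46, 47, 41 and 44 in WT pro-B libraries, and 40, 47, 47 and 46 in Mki67-/- and 41, 47, 47 and 45 in WT small pre-B libraries. Gse1 had the most peaks and the smallest log2 ratio, 0.60, with means of 42.8 ± 3.20 in pro-B and 28.1 ± 1.89 in pre-pro-B libraries (SD, n = 8 each). It also held 17 of the 43 constant regions. In the deposited lists the 2 stages overlapped, with 66.9 ± 3.00 peaks in pro-B and 60.6 ± 3.62 in pre-pro-B libraries (SD, n = 8 each). The gained region at chromosome 8, 120571441 to 120572962, had a deposited peak in 8 of 8 pre-pro-B libraries at the top 60.5% of the lists, and stood at the top 2.81% in pro-B and the top 2.19% in small pre-B lists. The gained region at 120268762 to 120269569 stood at the top 19.4% in small pre-B and at the top 2.39% in pro-B lists.

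Med13l held 12, 10, 8 and 10 peaks in Mki67-/- and 8, 8, 11 and 9 in WT pre-pro-B libraries. It held 20, 19, 21 and 22 in Mki67-/- and 21, 21, 19 and 21 in WT pro-B libraries, and 17, 17, 21 and 18 in Mki67-/- and 16, 16, 18 and 17 in WT small pre-B libraries. The pro-B mean was 20.5 ± 1.07 and the pre-pro-B mean 9.50 ± 1.51 (SD, n = 8 each). Its strongest gained region (chromosome 5, 118681674 to 118682577) stood at the top 7.69% in small pre-B and the top 7.17% in pro-B lists and had no deposited peak in any pre-pro-B library. The longest run of gains in Med13l held 2 regions, the fewest of the 9 genes, while Stx8 had the largest median gap between gains, 27146 bp, against 12307 bp for Med13l. The promoter of Med13l had a peak among the 40000 strongest in 0 of 4 Mki67-/- and 2 of 4 WT pre-pro-B libraries, 0 of 4 Mki67-/- and 1 of 4 WT pro-B libraries, and 3 of 4 Mki67-/- and 4 of 4 WT small pre-B libraries. A deposited peak was there in 3 of 4 Mki67-/- and 4 of 4 WT libraries at both earlier stages. In small pre-B cells it was there in 4 of 4 libraries of either genotype, so these changes were mostly in rank.

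**Figure D2:**
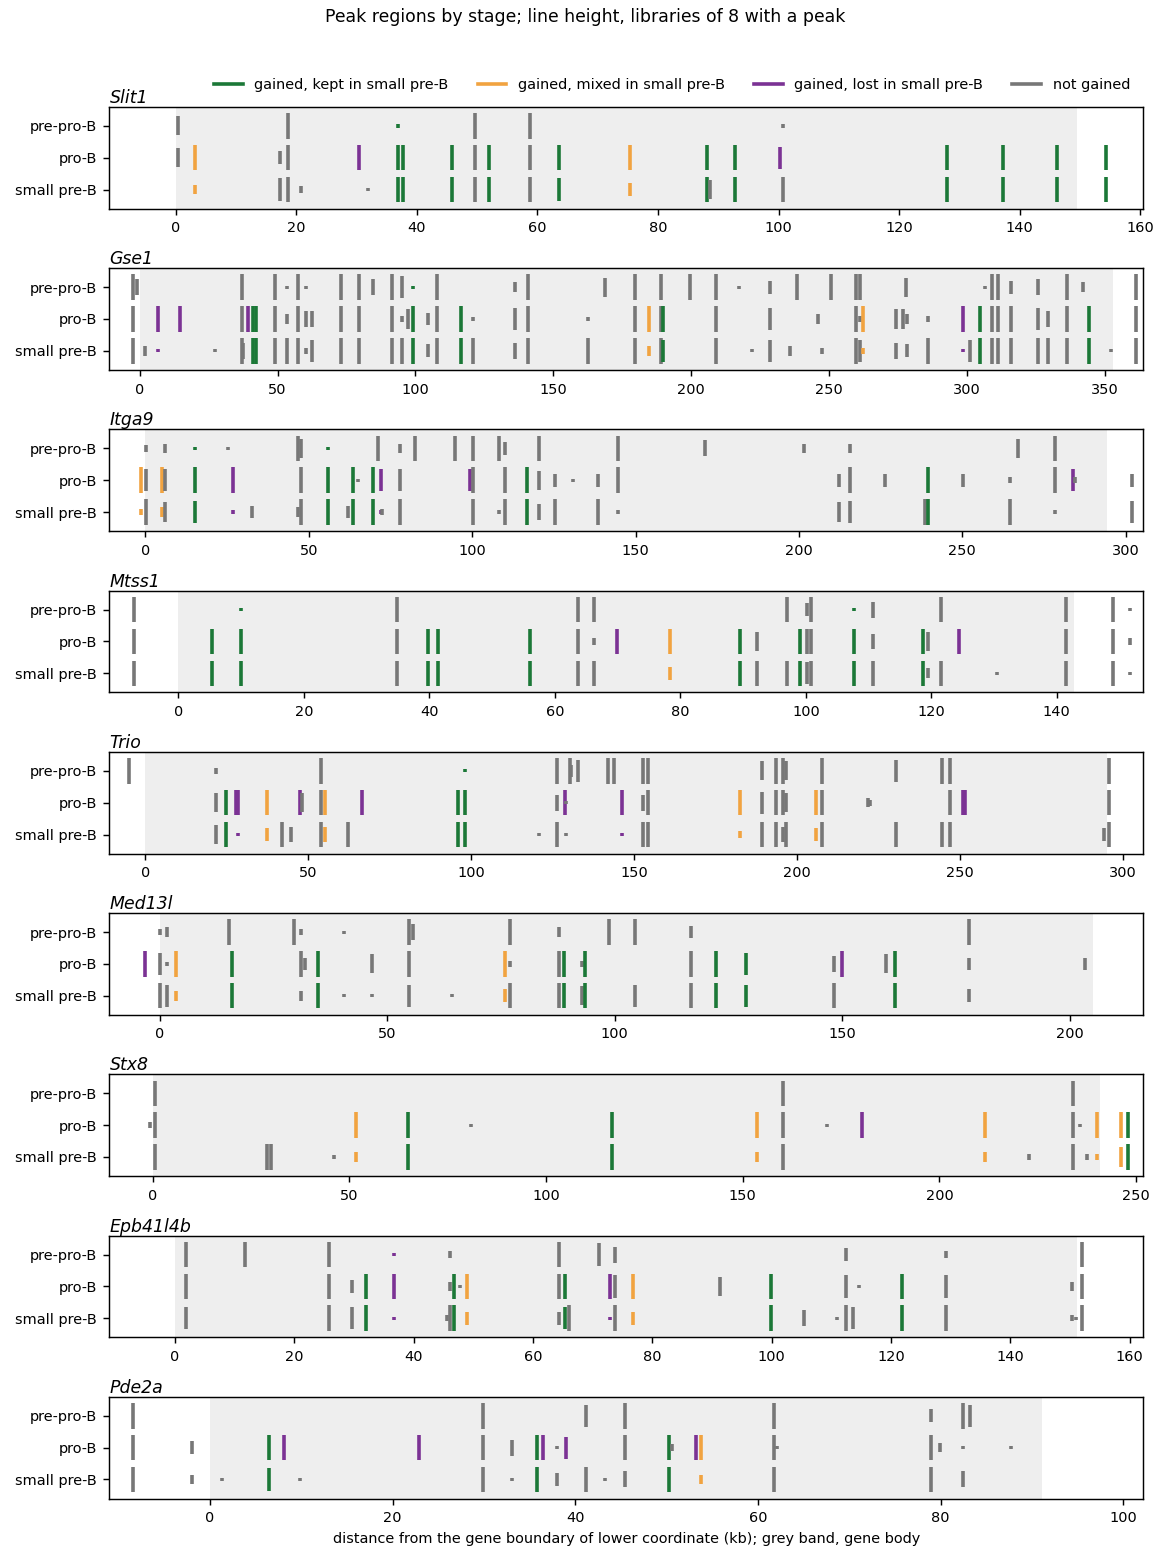
Regions in each gene and 10 kb on both sides, drawn at their distance in kb from the lower boundary of the gene (x axis), with a row for each stage and a line height set by how many of 8 libraries had a peak. Colours mark the fate of gained regions in small pre-B cells and grey the other regions. The 105 gained regions are spread over the gene bodies, and the 6 of the longest Trio run fall within 31.3 kb.

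Across the 9 genes, 100 of the 105 gained regions lay inside gene bodies and 5 in the flanks. They were close together: 48 of 96 gaps between neighbouring gained regions (50.0%) were at most 10 kb, against 17.4% of the gaps between all 9691 gained regions, and the median gap was 10126 bp, against 60393 bp. A gene chosen for many gains must hold them close, so this spacing is a description. Most lay far from a start in the table. Of the 78 gained regions in the 7 genes with a promoter there, 3 lay within 2 kb and 12 (15.4%) within 10 kb of one. The median distance was 91643 bp. The starts listed for Itga9 and Gse1, both on the plus strand, lie inside the genes, at 118711692 and from 120488866 on. The lower boundaries of these genes are 118606709 and 120228501, and distances from a start there were not measured. Of the 105, 58 (55.2%) had no deposited peak in any pre-pro-B library, against 52.1% of all gained regions. The other 47 included 27 with a deposited but weaker peak in at least 7 of 8 pre-pro-B libraries. Part of the gain counted here was therefore a rise in rank within the list. The median gained region was 609 bp wide, against 561 bp for all gained regions.

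The 9 genes are long, with a median length of 205109 bp, against 17329 bp for all genes. The number of peaks that chose them was not scaled by length, and the part of length in the choice was not tested. Per 100 kb of window, the gain placed Pde2a at rank 1, Slit1 at rank 2 with 9 and Mtss1 at rank 3 with 7.14 peaks among the 2305 genes at least as long as Pde2a. Shorter genes were not ranked, and the ranking uses the difference that chose the 9 genes, so it is a description. Trio, with 3.65 peaks per 100 kb, was lowest of the 9 at rank 47, and the median of those 2305 genes was -0.0874. By length covered with peaks, pro-B and pre-pro-B libraries overlapped for Gse1, Itga9, Trio and Med13l. For Trio the covered length was 13116 ± 1064 bp in pro-B and 12044 ± 1428 bp in pre-pro-B libraries (SD, n = 8 each), so its peaks were more and narrower in pro-B cells. The narrowing was not particular to Trio: deposited lists covered 49.0 Mb in WT pre-pro-B and 30.0 Mb in WT pro-B libraries on average. Their mean numbers of peaks were 84682 and 74698. Mki67-/- lists covered 42.8 Mb with 80504 peaks in pre-pro-B and 30.6 Mb with 74484 in pro-B cells. The part of peak width in the gains was not tested. The median log2 ratio over the 9 genes was 1.11 by number of peaks, 0.51 by covered length and 0.50 in the deposited lists.

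Small pre-B cells were then set against pro-B cells. Of the 9 genes, 4 fell in number of peaks and none rose: Pde2a, Trio, Med13l and Stx8. Of all 15744 genes tested, 11.9% fell and 11.4% rose, by an exact permutation test within genotype with Benjamini-Hochberg adjustment over all genes. The pro-B libraries also chose the genes, so this contrast is not independent of the choice. A choice for high pro-B counts favours a fall from them. The calls and adjusted p-values of the 9 genes in this contrast are therefore a description. The median difference was -2.25 peaks over the 9 genes and 0 over all genes tested.

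Pde2a had 12 ± 1.07 peaks in small pre-B and 17.5 ± 1.31 in pro-B libraries (SD, n = 8 each), a difference of -5.50 with an adjusted p of 0.00467 in the exact permutation test. Trio had 25.1 ± 2.17 in small pre-B and 29.6 ± 1.60 in pro-B libraries, with an adjusted p of 0.0129. For Med13l the means were 17.5 ± 1.60 in small pre-B and 20.5 ± 1.07 in pro-B libraries, with an adjusted p of 0.0195. For Stx8 they were 11.8 ± 1.58 in small pre-B and 14 ± 0.926 in pro-B libraries, with an adjusted p of 0.0320. Only Pde2a had no overlap between the stages. Without any single WT pro-B library the adjusted p of Stx8 was between 0.0524 and 0.0534. The differences of the 5 genes that did not pass were -1.50 for Slit1, 2.25 for Gse1, -2.62 for Itga9, 0.375 for Mtss1 and -0.250 for Epb41l4b, with adjusted p from 0.0939 to 1.00. Slit1 passed without Mki67-/- pro-B replicate 1 (adjusted p = 0.0268) or without WT small pre-B replicate 3 (adjusted p = 0.0298).

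These calls depend on which peaks are counted. Among the 20000 strongest peaks the difference of Pde2a was 0 (adjusted p = 1.00). In that list Trio and Epb41l4b fell, by 2.38 and 2.62 peaks (adjusted p = 0.0219 and 0.0109), and Mtss1 and Gse1 rose, by 4.25 and 1.25 peaks (adjusted p = 0.00408 and 0.0236). In the deposited lists Pde2a fell by 12 and Itga9 by 9.62 peaks (adjusted p = 0.00681 for both), and the other 7 genes did not pass. The 4 calls held without replicate 1 of both small pre-B groups, with adjusted p from 0.00752 to 0.0416.

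Peak by peak, 54 of the 105 gained regions (51.4%) were kept in small pre-B cells, with a peak in at least 7 of 8 libraries. Another 30 (28.6%) were lost, with a peak in at most 1 of 8, and 21 lay between. Other rules picked their own gained regions, so their counts are not shares of the 105. The number lost was 18 under the stricter rule of 8 of 8 and 0 of 8 libraries. In WT libraries alone, with limits set for fewer libraries, it was 54. Part of the loss was one of rank: in the deposited lists 8 of the 30 had a peak in at least 7 of 8 small pre-B libraries. Another 19 had one in 1 to 6 of 8 and 3 in none, with a median of 3 of 8. Of the 105 regions, 88.8% in Mki67-/- and 76.9% in WT small pre-B libraries had a deposited peak on average. Of all 9691 gained regions, 46.5% were kept, 30.6% lost and 22.8% between, so the fates of the gained regions of these genes were close to the background. The genes differed among themselves: Mtss1 kept 9 of 12 and Slit1 11 of 15, while Trio kept 3 of 15 and lost 8, and Pde2a kept 3 of 9 and lost 5. For Stx8 most fell between, 5 of 9. Of the 26 regions that closed at the pro-B stage, 18 (69.2%) were still closed in small pre-B cells, against 78.7% of the 10573 such regions of the series. The 6 that returned (23.1%, against 10.7%) lay in Mtss1 and Trio, with 2 each, and in Med13l and Pde2a. Both of Trio had a deposited peak in 8 of 8 pro-B libraries and that of Med13l in 6 of 8, so these returns were in rank, while those of Mtss1 and Pde2a had one in at most 2 of 8.

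**Figure D3:**
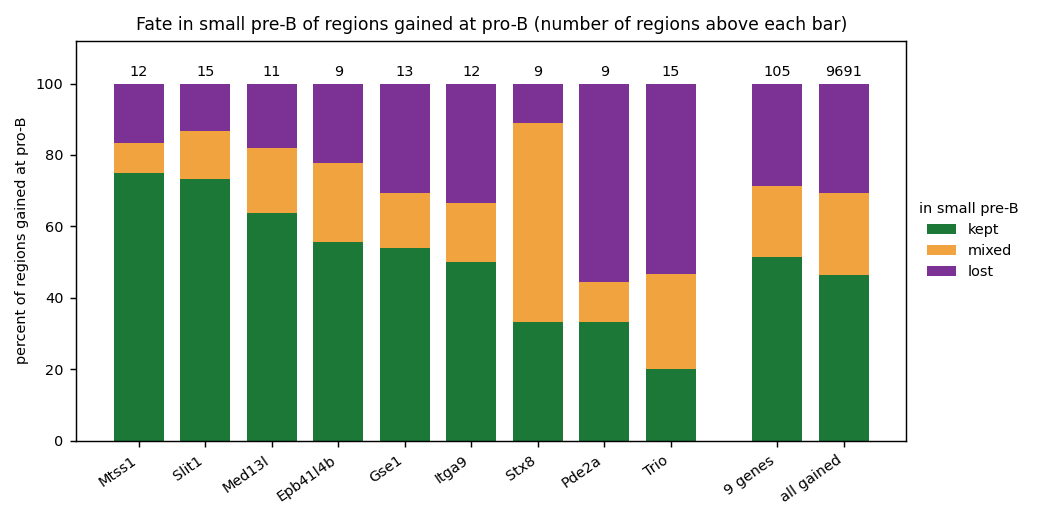
Fate in small pre-B cells of the regions gained at the pro-B stage, as a share of the gained regions of each gene and of all 9691 gained regions. Mtss1 kept 9 of 12 and Trio 3 of 15, and over the 9 genes 51.4% were kept, against 46.5% of all gained regions.

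Genotype took no part in choosing the genes. None of the 9 differed in number of deposited peaks between Mki67-/- and WT libraries across the 3 stages after adjustment, and neither did any of all 17598 genes tested (exact permutation test within stage, 12 against 12 libraries). In simulated data this test found 30.5% of 200 genes changed 2-fold and 90.5% of 200 changed 3-fold. The simulated counts were Poisson draws, whose variance equals their mean, around 1 mean per gene. Real counts can spread less: Slit1 had 26.4 ± 1.41 deposited peaks in pro-B libraries (SD, n = 8). The shares found therefore do not give the power in these data. Differences can go unseen, and the count of genes that passed does not show that there are none. Without adjustment, 691 genes (3.93%) were lower and 202 (1.15%) higher in Mki67-/- libraries at p under 0.05. Over the 9 genes, 7 differences were below 0 and 2 above, with a median of -1 peak. Over all genes, 10170 were below 0 and 5372 above, with a median of -0.0833. The lowest p was that of Med13l, with 31.4 ± 5.04 peaks in Mki67-/- and 34.5 ± 3.83 in WT libraries (SD, n = 12 each; exact permutation p = 0.00967, adjusted p = 0.748). Its deposited peaks numbered 29, 26, 27 and 22 in Mki67-/- and 32, 28, 32 and 28 in WT pre-pro-B libraries. They numbered 37, 33, 39 and 33 in Mki67-/- and 38, 38, 36 and 36 in WT pro-B libraries, and 28, 34, 33 and 36 in Mki67-/- and 40, 36, 34 and 36 in WT small pre-B libraries. The genotypes overlapped at each stage, and among the 40000 strongest peaks the difference was 0.833 in the other direction. The deposited lists also differed in length, with 65298 ± 7900 peaks in Mki67-/- and 70569 ± 10503 in WT small pre-B libraries (SD, n = 4 each). The part of list length in these differences was not tested.

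Within a stage the smallest p for 4 against 4 libraries is 0.0286, which leaves little room after adjustment over all genes, and the exact permutation test gave an adjusted p of 1.00 for each of the 9. Groups of deposited counts did not overlap in 4 cases. Gse1 held 60, 59, 59 and 54 deposited peaks in Mki67-/- and 64, 61, 66 and 62 in WT pre-pro-B libraries, where 0.519% of all genes were lower and 0.183% higher without overlap. In pro-B cells, Trio held 47, 44, 46 and 47 peaks in Mki67-/- and 50, 51, 51 and 49 in WT libraries. Stx8 held 22, 20, 21 and 22 in Mki67-/- and 23, 23, 23 and 25 in WT pro-B libraries, and 0.706% of all genes were lower in this way. Mtss1 held 30 in each Mki67-/- and 29, 27, 29 and 29 in WT pro-B libraries, where 0.594% of all genes were higher. None of these 4 gaps was present among the 40000 strongest peaks.

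In small pre-B cells the 40000 strongest peaks gave another pair. Stx8 had 13 ± 1.15 peaks in Mki67-/- and 10.5 ± 0.577 in WT libraries, and Epb41l4b 19.5 ± 1.29 in Mki67-/- and 15.8 ± 1.26 in WT libraries (SD, n = 4 each). Neither gene's libraries overlapped between genotypes, and 1.35% of all genes were higher and 0.677% lower in this way. In the deposited lists both overlapped. Whether the genotype difference itself changed between stages was tested over all genes and stage pairs, and 0 of 52794 passed. In data simulated in the same way, this test found none of the changes put in, so that count says nothing of whether such differences exist. The lowest unadjusted p of the 9 genes was that of Mtss1 (exact permutation p = 0.00122, adjusted p = 1.00), with a Mki67-/- minus WT difference of -2.25 deposited peaks in small pre-B and 1.50 in pro-B cells. At an unadjusted p under 0.05, 2.21% of the gene and stage pairs were called.

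The 105 gained regions were also counted in each library. Among the 40000 strongest peaks, 101, 104, 104 and 105 of them had a peak in Mki67-/- and 105 in each WT pro-B library. In small pre-B libraries the numbers were 59, 74, 73 and 71 in Mki67-/- and 52, 60, 58 and 58 in WT cells, or on average 66.0% in Mki67-/- and 54.3% in WT libraries. The 2 genotypes overlapped, since Mki67-/- replicate 1 lay among the WT libraries. Over all 9691 gained regions the averages were 63.8% in Mki67-/- and 50.9% in WT small pre-B libraries, close to those of the 9 genes. Of the 105 regions, 27 (25.7%) had a peak in more Mki67-/- than WT small pre-B libraries, 73 (69.5%) in as many and 5 (4.76%) in fewer, against 28.1%, 67.5% and 4.36% of all gained regions. With all deposited peaks, the averages for the 105 were 88.8% in Mki67-/- and 76.9% in WT small pre-B libraries. For all 9691 they were 87.3% in Mki67-/- and 72.0% in WT small pre-B libraries. In both, Mki67-/- replicate 1 again lay among the WT libraries. Beside these shares stand the -log10 q values at rank 40000 given above, lower in Mki67-/- than in WT small pre-B libraries by less than 1 SD. The part of those values in the result was not tested.

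**Figure D4:**
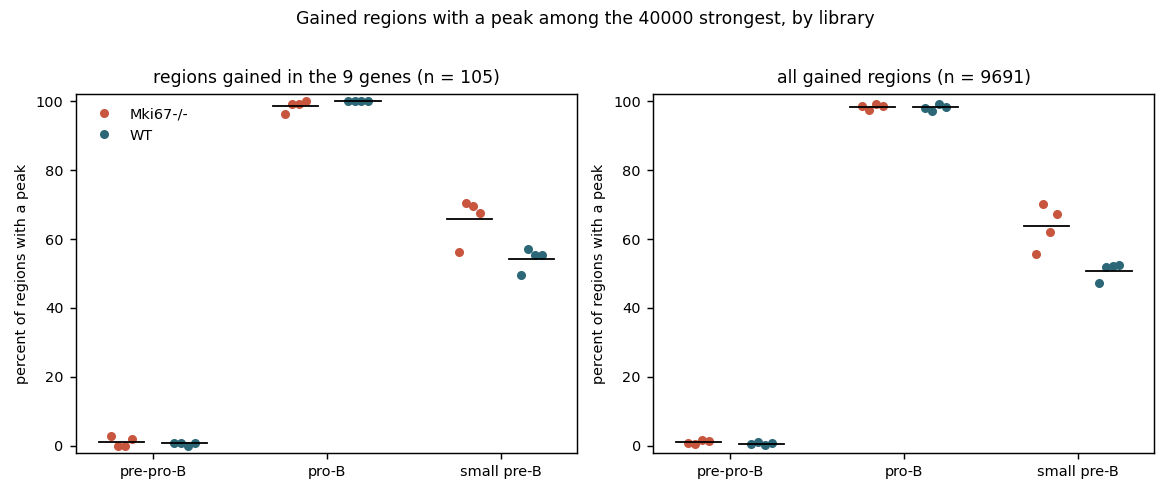
Percent of gained regions with a peak among the 40000 strongest (y axis) by stage (x axis) and genotype, for the 105 regions of the 9 genes (left) and all 9691 (right). Points are libraries (4 per group) and lines are means, which in small pre-B cells stand at 66.0% in Mki67-/- and 54.3% in WT libraries on the left and at 63.8% in Mki67-/- and 50.9% in WT libraries on the right.

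Single regions that separated the genotypes in small pre-B cells were few. A peak among the 40000 strongest in 4 of 4 Mki67-/- and 0 of 4 WT small pre-B libraries was found at 4 of the 317 regions (1.26%), where 0.700% of all regions had this pattern. They were Slit1 41672759 to 41673144, Med13l 118635347 to 118636178, and Epb41l4b 57055321 to 57056290 and 57068389 to 57068768. All but the first Epb41l4b region were gained regions, of which 3.35% had this pattern over the series. All 4 had a deposited peak in 4 of 4 WT small pre-B libraries too, so the separation was one of rank, not of presence. The reverse pattern was found at 1 region, Gse1 120332749 to 120333124 (0.315%, against 0.225%), with a deposited peak in 3 of 4 Mki67-/- small pre-B libraries. Over the 430 regions of the deposited lists in these windows, none passed the test by genotype across stages after adjustment. Unadjusted, 9 of them (2.09%) had an exact permutation p under 0.05, 3 higher and 6 lower in Mki67-/- libraries, against 0.676% and 1.00% of all 117987 regions tested. The lowest p was at Slit1 41746220 to 41746550, where 1 of 12 Mki67-/- libraries had a peak, against 7 of 12 WT libraries (exact permutation p = 0.0102, adjusted p = 1.00).

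Other genes of the same families were counted with the same test. Of 9 tested genes of Slit and Robo guidance, 3 rose and 5 fell in pro-B against pre-pro-B cells (24.8% and 21.1% of all genes). The receptor gene Robo4 had 5.25 ± 0.463 peaks in pro-B and 2.88 ± 0.354 in pre-pro-B libraries, and Srgap3, which encodes a partner of Robo receptors, 5.50 ± 0.756 in pro-B and 11.9 ± 0.354 in pre-pro-B libraries (SD, n = 8 each). Of 25 integrin genes, 6 rose and 7 fell. Of 4 I-BAR genes 1 rose and 1 fell, and of 11 FERM genes 1 rose and 5 fell, Frmd4b the most, with 9 ± 1.20 in pro-B and 18.4 ± 1.41 in pre-pro-B libraries. Of 17 syntaxins and endosomal SNAREs 3 rose and 3 fell, of 20 phosphodiesterases 6 rose and 6 fell, of 6 genes of the Mediator kinase module none rose and 1 fell, and of 12 CoREST partners 4 rose and 2 fell. The 9 members are not in these counts.

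In small pre-B against pro-B cells 11.4% of all genes rose and 11.9% fell. In several families, among them integrins, phosphodiesterases and the Mediator kinase module, the share that rose and the share that fell were both above these. Such differences were not tested. Of 25 integrin genes 8 rose and 4 fell, among them Itga4, which pairs with Itgb1 in marrow adhesion, with 3.25 ± 0.463 peaks in small pre-B and 1.25 ± 0.463 in pro-B libraries (SD, n = 8 each; adjusted p = 0.00467). Of 18 phosphodiesterases 5 rose and 4 fell, with Pde1c at 0.125 ± 0.354 in small pre-B and 2.25 ± 0.463 in pro-B libraries. Of 6 Mediator kinase genes 2 rose and 1 fell, and Cdk19, a kinase of the module, had 5.50 ± 1.77 in small pre-B and 9 ± 0.926 in pro-B libraries. Of 11 FERM genes 1 rose and 3 fell, of 17 syntaxins and SNAREs 2 rose and 1 fell, of 12 CoREST partners 1 rose and 1 fell, and none of 6 guidance and 4 I-BAR genes passed. By genotype no gene of these families passed the adjusted test.

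The genes outside the list whose counts followed the mean of the 9 most closely over the 24 libraries were Cyth1 (Pearson r = 0.983), Coro1b (0.982), and Eif3g, Nt5dc2 and Ppan (0.980 each). The 24 libraries fall into 3 stages, so such a value reflects the step between stages and carries no p. Cyth1, an exchange factor for ARF proteins, had 7.38 ± 0.518 peaks in pre-pro-B libraries, 15.5 ± 0.535 in pro-B libraries and 14 ± 0 in small pre-B libraries (SD, n = 8 each). The windows of Eif3g and Ppan overlap, since the genes neighbour each other on chromosome 9.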

How the data were processed

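ATAC-seq was done on 24 libraries of sorted mouse bone-marrow progenitors. Per the submitters' processing notes, the authors used Trimmomatic, MACS2, deepTools, DiffBind and DESeq2 on mm10; their roles, parameters and versions are not given in the sources used here. The deposited files hold 1 MACS2 peak list per library. The deposited score is a whole number, 10 times the -log10 q. The authors' fold is a ratio, the height of a summit over what the same library had around it. For each summit the authors' lists also give a -log10 p and a -log10 q, and the lowest deposited -log10 q was 2.0. Each library was called on its own, so these values ranked and described peaks within a list only.

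Entries that overlapped or touched were merged on chromosomes 1 to 19 and X. Genes were 21631 protein-coding genes of RefSeq (GRCm38.p6) widened by 10 kb at either end; genes with a peak in fewer than 4 libraries were not tested. Stages were compared on the 40000 strongest peaks of each library, since deposited lists differ in length between stages, and genotypes on the deposited lists. Differences in means were tested by exact permutation, two-sided, with stage permuted within genotype and genotype within stage. P-values were adjusted by Benjamini and Hochberg over all genes or regions, with a threshold of 0.05. An overlap of 1 bp with a peak was enough for a region to count as present. The functions were tested on simulated data. The members and the gene lists were chosen with earlier results of these data known. The genes named are the 9 members, at most 3 per direction of each family list by p and then difference, and the 5 genes of highest likeness (1 family list is not reported here); the regions named are those of highest rank, at the ends of runs, or with a stated pattern. Alternatives were other list lengths, covered length, the gene body alone, stricter region rules, a replicate block and leaving out libraries. Windows also hold peaks of neighbouring genes. Python 3.11.15, numpy 2.4.6, pandas 2.3.3, numba 0.67.0 and matplotlib 3.10.9 were used. No genome, exon annotation or protein sequence was used here.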

Additional observations from a re-analysis of the deposited data

Results flagged for a closer look

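Of 114 groups of 4 libraries, 20 (17.5%) had a library whose gap to the nearest other was above Dixon's critical share of the group's range, where chance flags about 1 in 20 groups. Peak counts are small whole numbers with many ties, and in most of these groups the other 3 libraries had the same count. The widest gaps were in 4 cases. Itga9 had 28 deposited peaks in Mki67-/- pre-pro-B replicate 4, against 39 to 41 in the other 3, and Gse1 had 54 there, against 59 to 60. That library also had 67920 peaks, the fewest of its group. Epb41l4b had 35 deposited peaks in Mki67-/- pro-B replicate 1, against 29 in each of the others. Gse1 had 40 of the strongest peaks in Mki67-/- small pre-B replicate 1, against 46 to 47.

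The others differed by 1 or 2 peaks. Among the 40000 strongest peaks, WT pre-pro-B libraries stood apart for Slit1 (3 peaks in replicate 1, against 4), Mtss1 (9 in replicate 3, against 11), Stx8 (4 in replicate 1, against 3), Epb41l4b (6 in replicate 1, against 8) and Pde2a (8 in replicate 2, against 7). Mki67-/- pre-pro-B replicate 1 stood apart for Trio (19, against 18) and Stx8 (4, against 3). In pro-B cells this held for Slit1 in Mki67-/- replicate 1 (18, against 20), Med13l in WT replicate 3 (19, against 21) and Pde2a in WT replicate 1 (16, against 18). In small pre-B cells it held for Mtss1 in Mki67-/- replicate 1 (24, against 23) and in WT replicate 4 (22, against 23), and for Pde2a in WT replicate 2 (11, against 12). In the deposited lists it held in WT pro-B cells for Mtss1 in replicate 2 (27, against 29) and Stx8 in replicate 4 (25, against 23). Of the 105 gained regions, WT pre-pro-B replicate 3 had a peak in 0, against 1 in each of the others.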

How the results depend on the processing

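The median log2 ratio of pro-B to pre-pro-B peaks over the 9 genes, 1.11, was 0.50 with all deposited peaks and 0.51 by covered length, and 1.08 to 1.16 leaving out 1 library. Of the 9 genes, 4 fell and 0 rose in small pre-B against pro-B cells. With deposited peaks 2 fell, with the 20000 strongest 2 fell and 2 rose, by covered length 8 fell and in the gene body alone 2 fell; leaving out 1 library gave 3 to 5. Over all genes, 1873 fell and 1801 rose. With deposited peaks these were 2831 and 1045, by covered length 4763 fell, in the gene body alone 1157 rose, and leaving out 1 library gave 1925 to 2052 and 1829 to 2041. The replicate block gave 0 members and 0 genes in either direction; its smallest possible p is 0.00781, and the cause was not tested. Replicate numbers did not pair the libraries: correlations of same-numbered libraries ran from -0.160 to 0.094 over 36 pairs, with 0 over 0.1. Differences that turned sign in small pre-B against pro-B cells were Mtss1 (-0.875) and Stx8 (0.125) with deposited peaks, and Gse1 (-2028 bp) and Mtss1 (-737 bp) by covered length. Epb41l4b turned to 0.292 without replicate 1 of both small pre-B groups, chosen after seeing the data, and ran from -0.732 to 0.268 leaving out 1 library (0.0536 without WT pro-B replicate 4).

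By genotype, 0 genes passed and 3 did by covered length, none of them among the 9. With the 40000 strongest peaks the signs turned for Slit1 (0.833), Mtss1 (0.417), Trio (0.750), Med13l (0.833) and Stx8 (0.833), with a -log10 q of at least 10 for Pde2a (-0.500), and without 3 libraries chosen after seeing the data for Itga9 (0.0833), Trio (0.472) and Stx8 (0.250). Members whose genotypes did not overlap numbered 1, 3 and 0 (pre-pro-B, pro-B, small pre-B). With the 40000 strongest peaks they numbered 0, 0 and 2, with a -log10 q of at least 5, 0 in pre-pro-B and 1 in pro-B, and with at least 10 or by covered length 0 in both. In the gene body alone they numbered 1 in pro-B, and leaving out 1 library gave 1 to 2, 3 to 4 and 0 to 1. Of the 105 gained regions, 54 were kept and 30 lost. Each alternative picked its own gained regions, so its counts are not shares of the 105. The lost numbered 18 under 8 of 8 and 0 of 8 libraries. In WT libraries alone, with limits set for fewer libraries, they numbered 54. The 20000 strongest peaks gave 48 gained, 29 kept and 14 lost. The causes were not tested. Depth is unknown, so a missing peak is not a closed site.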
